A study of Mus musculus with 6 samples.

Results

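The Pde11a, Col3a1 and Bmper adipose progenitors are 5418 nuclei of subcutaneous white adipose tissue, chosen from 61496 nuclei that passed the filters on 65162 barcodes. A nucleus first had to carry at least 3 of 7 stromal genes (Pdgfra, Dcn, Fbn1, Lama2, Bicc1, Abca8a and Scara5), which 15758 nuclei did. It was then a member when at least 2 of the 6 genes Pde11a, Col3a1, Bmper, Dpep1, Hmcn2 and Mmp3 were detected, and more of them than of either of 2 other sets of 6 genes. The set led by Pi16 and Sema3e gave 7271 nuclei by the same rule, and the set led by C7 and Gdf10 gave 726. The remaining 2343 stromal nuclei fell in no class.

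Both groups were mice with loxP-flanked Gpsm1 on a high-fat diet, with 3 libraries each. Treg knockout mice (GPSM1ΔTreg) lack Gpsm1 in regulatory T cells by the name of the genotype, and flox control mice (GPSM1f/f) keep it. The sample labels give a diet of 12 weeks, and the protocol a range of 5 to 12 weeks begun at 7 weeks of age. Neither the Cre driver, nor the deleted exons, nor the sex is stated in the sources used here. The nuclei came from a sucrose gradient, were sorted on DAPI and went into 10x Genomics 3′ libraries, in which unique molecular identifiers (UMIs) count captured RNA molecules.

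Adipose progenitors are Pdgfra-expressing stromal cells that keep the tissue matrix and can become fat cells. In mice, work by others describes interstitial progenitors marked by Dpp4 and Pi16, committed preadipocytes marked by Icam1 and Pparg, and Cd142 (F3) cells that hold adipogenesis back. Of the genes that define the members, Col3a1 encodes a fibrillar collagen, Bmper a secreted modulator of bone morphogenetic proteins, Pde11a a phosphodiesterase that breaks down cyclic nucleotides, Dpep1 a membrane dipeptidase, Hmcn2 a hemicentin of the extracellular matrix and Mmp3 the protease stromelysin.

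The 3 Treg knockout libraries held 38857282 to 41951373 UMIs and the 3 flox control libraries 45007561 to 55342903, without overlap. Members contributed 1986530, 3470946 and 3459631 UMIs in Treg knockouts 1, 2 and 3, against 5702736, 5823376 and 4067212 in flox controls 1, 2 and 3. The median member held 2898.5 to 3751.5 UMIs in Treg knockouts and 3433 to 3614.5 in flox controls. Libraries shared 24 to 44 barcodes per pair, and members shared 3 barcodes over all pairs. Flox control 3 stood apart: 52.8% of its members carried at least 3 markers of another cell type (adipocyte, macrophage, endothelial, mural, B cell or T cell), against 19.2 to 35.7% in the other 5 libraries. The deletion could not be checked, because nuclei with Foxp3 and at least 2 T-cell markers held 10 Gpsm1 UMIs in 78 Treg knockout nuclei and 1 in 13 flox control nuclei.

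The 6 set genes chose the members, so their levels are a description and carry no test. Levels are in CPM, counts scaled to a total of 1000000 UMIs over the members of a library. Bmper stood at 840, 1050 and 1008 CPM in Treg knockouts 1, 2 and 3 and at 659, 961 and 824 CPM in flox controls 1, 2 and 3. Pde11a stood at 493, 652 and 523 CPM in Treg knockouts and at 292, 464 and 460 CPM in flox controls. Its Treg knockout libraries all lay above its flox control libraries, whereas those of Bmper overlapped. Col3a1 stood at 3384, 4872 and 3516 CPM in Treg knockouts and at 4696, 4127 and 2485 CPM in flox controls, with overlap. Hmcn2 ran the other way from Pde11a, with 218, 164 and 165 CPM in Treg knockouts against 248, 271 and 272 CPM in flox controls. Dpep1 lay between 529 and 550 CPM in Treg knockouts and between 306 and 485 CPM in flox controls, and Mmp3 lay between 244 and 358 CPM in Treg knockouts and between 126 and 240 CPM in flox controls. The rule also used the other 2 sets, which are described likewise. In members, all 6 genes of the C7 and Gdf10 set were higher in Treg knockouts, and 3 of 5 tested of the Pi16 and Sema3e set. C7 averaged 386 CPM in Treg knockouts and 233 CPM in flox controls, with overlap. Gdf10 averaged 54.8 CPM and 28.6 CPM, without overlap.

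The set genes were detected in unequal shares of members. Col3a1 had a UMI in 92.5 to 97.9% of members per library, Bmper in 77.8 to 87.3%, Dpep1 in 61.8 to 81.7%, Pde11a in 43.1 to 55.1%, Mmp3 in 24.6 to 39.5% and Hmcn2 in 24.1 to 46.0%. Macrophage-marked nuclei were taken to give the level of free RNA. They had a UMI of Col3a1 in 10.4 to 29.5%, of Bmper in 2.84 to 10.6% and of the other 4 genes in at most 3.61%. Bmper was not confined to stromal nuclei. It stood at 221 CPM in nuclei with at least 5 adipocyte markers, against 47.8 CPM in macrophage-marked nuclei and 240 CPM in the C7 and Gdf10 class. Col3a1 stood at 48.7 CPM in the adipocyte-marked nuclei. The macrophage-marked nuclei held a median of 2452 to 3209 UMIs per library. After each nucleus was thinned to 1000 UMIs, Col3a1 remained in 68.7 to 86.7% of members, Bmper in 45.6 to 60.7% and Pde11a in 25.0 to 36.1%. Col3a1 and Bmper were detected together in 72.2 to 84.8% of members, Pde11a and Bmper in 35.6 to 47.9%, and Hmcn2 and Mmp3 in 8.66 to 17.1%.

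Of the 5418 members, 778 carried 2 of the set genes, 1340 carried 3, 1864 carried 4, 1206 carried 5 and 230 carried all 6. The nuclei just inside the rule differed from those well inside it. Members with 2 set genes had a summed level of the set of 1452 CPM, and 46.9% of them carried at least 3 of 10 adipocyte markers. Members with 4 or more had a summed level of 8029 CPM, and 16.6% of them carried that many adipocyte markers. Just outside the rule, the 547 stromal nuclei with 1 set gene and none of the other sets had 451 CPM, and 59.0% of them carried at least 3 adipocyte markers. The 990 nuclei whose highest set was tied had 4333 CPM and a share of 21.5%.

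Set against the other 2 stromal classes, members were highest for the genes that work on mouse fat uses to mark Icam1-type committed preadipocytes. This too is a description, since the classes were cut from the same nuclei. All 14 genes of the Icam1-type list were highest in members, and still were after nuclei with markers of another cell type had been left out of all 3 classes. Icam1, an adhesion molecule, averaged 37.3 CPM in members against 8.68 CPM in the Pi16 and Sema3e class and 23.9 CPM in the C7 and Gdf10 class. Pparg, the master regulator of fat cell formation, averaged 693 CPM in members against 260 CPM in the Pi16 and Sema3e class and 301 CPM in the C7 and Gdf10 class. Without the marked nuclei Pparg averaged 432 CPM in members, 58.3 CPM in the Pi16 and Sema3e class and 84.5 CPM in the C7 and Gdf10 class. Both genes thus kept their order over the classes.

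Col4a1, Sparcl1 and Lpl of that list followed the same order. Fabp4 (996 and 976 CPM), Cd36 (467 and 450 CPM) and Plin2 (83.9 and 81.9 CPM) stood nearly level in the Pi16 and Sema3e class and the C7 and Gdf10 class. Without marked nuclei Fabp4 (542 and 578 CPM) and Cd36 (123 and 146 CPM) were lowest in the Pi16 and Sema3e class. Plin2 (50.9 and 45.9 CPM) was then lowest in the C7 and Gdf10 class. Col4a1 averaged 945 CPM in members, 143 CPM in the Pi16 and Sema3e class and 432 CPM in the C7 and Gdf10 class. Sparcl1, a secreted matrix protein, averaged 205 CPM in members, 11.5 CPM in the Pi16 and Sema3e class and 88.3 CPM in the C7 and Gdf10 class. Lpl, the lipase that frees fatty acids from circulating triglycerides, averaged 1163 CPM in members, 322 CPM in the Pi16 and Sema3e class and 500.2 CPM in the C7 and Gdf10 class.

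The lists of the other progenitor types stood elsewhere. Of the 13 genes of the Dpp4-type list at 10 CPM or more, leaving out Pi16, which the rule used, 12 were highest in the Pi16 and Sema3e class and 1, Tmeff2, was highest in members. Dpp4 averaged 161 CPM in members, 1785 CPM in the Pi16 and Sema3e class and 181 CPM in the C7 and Gdf10 class, and Sema3c averaged 182 CPM, 2176 CPM and 307 CPM in the same classes. All 10 genes of the Cd142-type list, leaving out the rule gene Gdf10, were highest in the C7 and Gdf10 class. F3 averaged 135 CPM in members, 29.5 CPM in the Pi16 and Sema3e class and 1011 CPM in the C7 and Gdf10 class, and Fmo2 averaged 162 CPM, 17.2 CPM and 1104 CPM in the same classes.

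**Figure D1:**
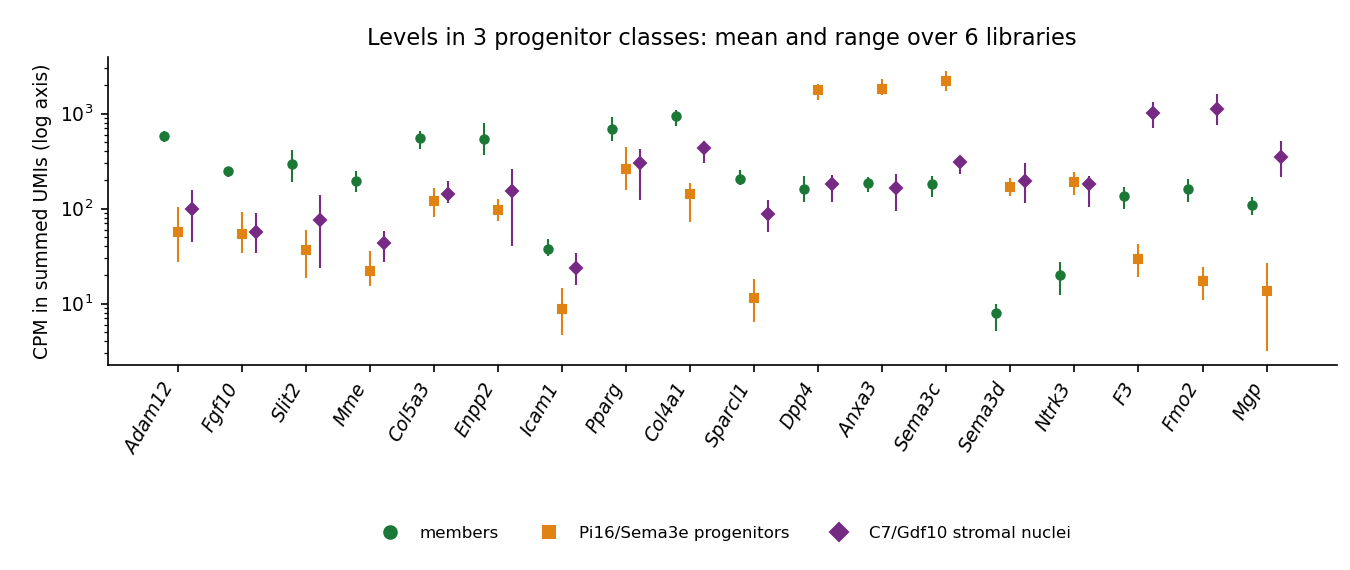
Mean level in CPM (log axis) of 18 genes in members, in Pi16 and Sema3e progenitors and in C7 and Gdf10 stromal nuclei; points are means and lines the range over the 6 libraries. Adam12, Fgf10, Slit2 and the Icam1-type genes lie highest in members (Adam12 583 CPM), Dpp4, Anxa3 and Sema3c in the Pi16 and Sema3e class (Dpp4 1785 CPM), and F3, Fmo2 and Mgp in the C7 and Gdf10 class (F3 1011 CPM).

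Beyond the lists, 453 genes with at least 50 CPM in members were higher in members than in both other classes in all 6 libraries, 57 of them by at least 2-fold. Adam12, a metalloprotease, led them with 583 CPM in members against 57.0 CPM in the Pi16 and Sema3e class and 100 CPM in the C7 and Gdf10 class. Its ratio over the higher of the other classes, with 5 CPM added, was 6.07, and 3.47 to 11.9 in single libraries. The leaders fell into several kinds. Matrix and protease genes were Adam12, Col5a3 (558 CPM in members), Mmp11 (86.5 CPM) and Mme (195 CPM), which encodes neprilysin. Ligands and guidance or adhesion genes were Fgf10 (247 CPM), Slit2 (297 CPM), Adam23 (322 CPM), Dchs2 (84.2 CPM), Olfm2 (63.5 CPM), Prtg (74.2 CPM) and Cdh19 (66.2 CPM). Lipid mediator genes were Enpp2 (535 CPM), which makes lysophosphatidic acid, the prostaglandin E receptor gene Ptger3 (129 CPM) and Hpgd (320 CPM), which breaks down prostaglandins. The others were Epas1 (137 CPM), Plekha6 (85.0 CPM), Spaar (65.9 CPM), Trhde (143 CPM), Dok6 (190.4 CPM) and the exchanger gene Slc24a3 (444 CPM), with ratios of 2.93 to 3.84.

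Adipocyte-marked nuclei bear on some of these levels. Fgf10 averaged 319 CPM in nuclei with at least 5 adipocyte markers, Ptger3 318 CPM, Trhde 268 CPM, Dok6 251 CPM and Slc24a3 794 CPM, all above their levels in members. Fgf10 kept its order without marked nuclei, at 270 CPM in members, 27.5 CPM in the Pi16 and Sema3e class and 29.6 CPM in the C7 and Gdf10 class. Adam12 likewise averaged 668 CPM, 13.9 CPM and 66.0 CPM in those classes.

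Genes low in members had to reach at least 50 CPM in both other classes, so their number cannot be set against that of the high genes. By this rule 250 lay below both other classes in all 6 libraries, 41 of them by at least 2-fold. Sema3d, a secreted guidance cue, averaged 7.97 CPM in members, 168 CPM in the Pi16 and Sema3e class and 194 CPM in the C7 and Gdf10 class. Ntrk3, the neurotrophin-3 receptor, averaged 19.95 CPM in members, 190.4 CPM in the Pi16 and Sema3e class and 180 CPM in the C7 and Gdf10 class. The other leading genes of this kind were Ildr2, Adgrg6, Adam22, Adamtsl3, Cd200, Mpp6, Cadm3 and the WNT antagonist gene Sfrp4, at 9.56 to 57.2 CPM in members.

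Of the matrix genes, 12 of 25 fibrillar collagen and processing genes were highest in members, 6 in the Pi16 and Sema3e class and 7 in the C7 and Gdf10 class. Col6a3 averaged 742 CPM in members, 143 CPM in the Pi16 and Sema3e class and 397 CPM in the C7 and Gdf10 class, whereas Col14a1 averaged 137 CPM, 942 CPM and 341 CPM. Basement membrane genes were highest in members for 9 of 17, and matrix glycoproteins for 10 of 37. Genes that the rule used, such as Col3a1, were left out of these counts.

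Members made up a lower average share of the stromal nuclei in Treg knockouts, but the groups overlapped. The share was 23.8% in Treg knockout 1 (95% Clopper-Pearson interval 21.9 to 25.8%), 35.5% in Treg knockout 2 (33.7 to 37.4%) and 32.01% in Treg knockout 3 (30.2 to 33.9%). It was 37.1% in flox control 1 (35.3 to 38.8%), 39.5% in flox control 2 (37.8 to 41.3%) and 34.1% in flox control 3 (32.3 to 36.0%). The intervals cover counting error only. Treg knockout 1 was lowest, and Treg knockout 2 lay above flox control 3. The means were 30.4 ± 6.04% in Treg knockouts and 36.9 ± 2.69% in flox controls (SD, n = 3 each; exact two-sided permutation p = 0.2, where 3 against 3 libraries cannot go below 0.1). The difference of −6.47 percentage points was −3.13 without Treg knockout 1.

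Of all kept nuclei, members were 4.19, 9.31 and 8.01% in Treg knockouts and 10.7, 12.2 and 8.77% in flox controls (7.17 ± 2.66% and 10.6 ± 1.72%; exact permutation p = 0.2), and the difference of −3.39 percentage points was −1.90 without Treg knockout 1. The ratio of members to Pi16 and Sema3e nuclei was 0.41, 0.776 and 0.629 in Treg knockouts, below the 0.827, 0.906 and 0.905 in flox controls (exact permutation p = 0.1, the smallest possible). After thinning to 1000 UMIs the share of stromal nuclei was 28.8 ± 6.16% in Treg knockouts and 34.5 ± 4.3% in flox controls (exact permutation p = 0.3), with 727 to 1034 nuclei of Treg knockouts and 485 to 1904 of flox controls left out as too shallow. In a further count, members with markers of another cell type no longer counted as members but stayed among the stromal nuclei of the denominator. The Treg knockout share was then 0.217 percentage points above the flox control share. Such marked nuclei were 24.0 ± 4.42% of members in Treg knockouts and 38.3 ± 13.4% in flox controls, so this count took more from the flox control share. It is not a share among unmarked nuclei.

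Members of flox controls more often carried fat cell markers. At least 3 of 10 adipocyte markers were detected in 10.7, 12.6 and 17.0% of members in Treg knockouts, against 25.2, 18.5 and 44.3% in flox controls (13.4 ± 3.19% and 29.3 ± 13.4%; exact permutation p = 0.1, without overlap). Macrophage markers were found likewise in 2.68, 4.49 and 4.02% of members in Treg knockouts and in 12.0, 6.78 and 21.1% in flox controls. T-cell markers went the other way in part, with 4.91, 1.15 and 5.24% in Treg knockouts and 0.828, 0.331 and 1.34% in flox controls. Scrublet, a tool that scores barcodes for signs of 2 nuclei, put 11.4 to 15.6% of members per library among its highest scores, against 8.12 to 9.07% of all kept nuclei. The part of these nuclei in the shares above was not tested beyond the values without them.

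**Figure D2:**
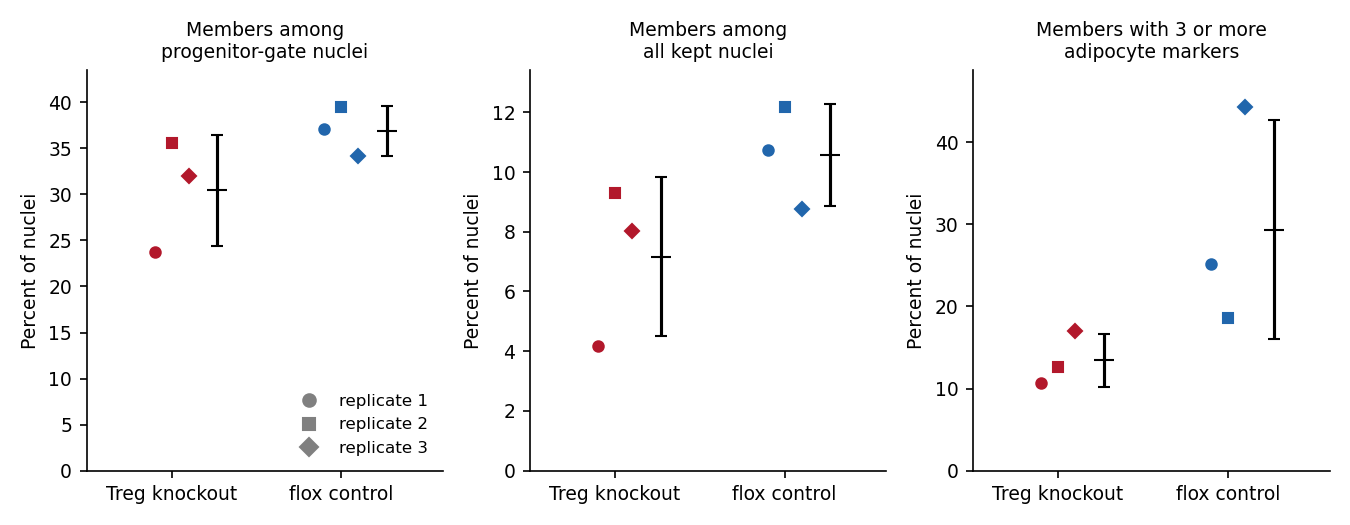
Members as a percent of stromal nuclei, as a percent of all kept nuclei, and the percent of members with at least 3 adipocyte markers, per library; points are libraries and bars the mean ± SD (n = 3). The first 2 shares overlap between Treg knockouts and flox controls, while the adipocyte-marked share (13.4 and 29.3%) does not.

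The genotype comparison asks what the loss of Gpsm1 in regulatory T cells goes with in these progenitors. UMIs of members were summed per library and 13436 genes were tested with edgeR. After Benjamini-Hochberg adjustment 116 genes rose in Treg knockouts (0.863% of those tested) and 414 fell (3.08%). These counts include Gdf10, which rose, and Hmcn2, which fell. The rule used both genes, so their values are a description only. The groups of libraries did not overlap for 3326 genes, 24.8% of those tested. Most of the genes that fell were fat cell genes: 341 of the 414, or 82.4%, stood at least 2-fold higher in adipocyte-marked nuclei than in members, against 9.14% of all genes tested. Of the 116 that rose 0 did so, and 60 of them, or 51.7%, stood at no more than a 0.5-fold level in both adipocyte-marked and macrophage-marked nuclei, against 9.65% of all genes tested.

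When the nuclei with at least 3 markers of another cell type were left out, 337, 774 and 591 members remained in Treg knockouts and 699, 889 and 423 in flox controls. Of 11246 genes tested in them, 17 rose (0.151%) and 9 fell (0.08%). Of the 17 that rose, 9 were ribosomal protein genes, a list added after seeing the data. Leaving out only adipocyte-marked nuclei gave 0 calls in edgeR among 12067 genes, with 1282 at an unadjusted p under 0.05. Of the genes that had fallen, 334 could be tested without the marked nuclei: 285 kept their sign and 5 passed, with a median log2 fold change of −0.27 in place of −0.86 for all 414. Of those that had risen, 104 could be tested: 102 kept their sign and 6 passed, with a median of 0.46 in place of 0.75 for all 116. The calls without marked nuclei again include rule genes. They were 1 rise from the C7 and Gdf10 set and 1 fall from the set that defines the members. In all members 9 of the 10 adipocyte markers were tested and 6 fell, with none at 0, and of the 10 macrophage markers 2 fell. Over all genes tested 3.08% fell. The 10 adipocyte markers summed to 5538 to 6250 CPM in all members of Treg knockouts and 8141 to 9488 CPM in those of flox controls. Without the marked nuclei they stood at 1737 to 1905 CPM in Treg knockouts and 1623 to 1913 CPM in flox controls, so that the groups overlapped. The same 10 markers served to choose the nuclei left out, which caps their level in both groups. This overlap is therefore a description and no test.

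The calls also rested on single libraries. Genes that rose numbered 50 without Treg knockout 1, 28 without Treg knockout 3, 14 without flox control 1 and 48 without flox control 2, and genes that fell numbered 170 without Treg knockout 1, 92 without Treg knockout 3 and 113 without flox control 1. Without flox control 3, the library that stood apart, 134 rose and 383 fell, and without the marked nuclei as well 35 rose and 26 fell. When Bmper was dropped from the rule, 16 rose and 95 fell. The labels give 3 replicates per genotype and no number of mice per library, and p-values measure the spread between these libraries.

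**Figure D3:**
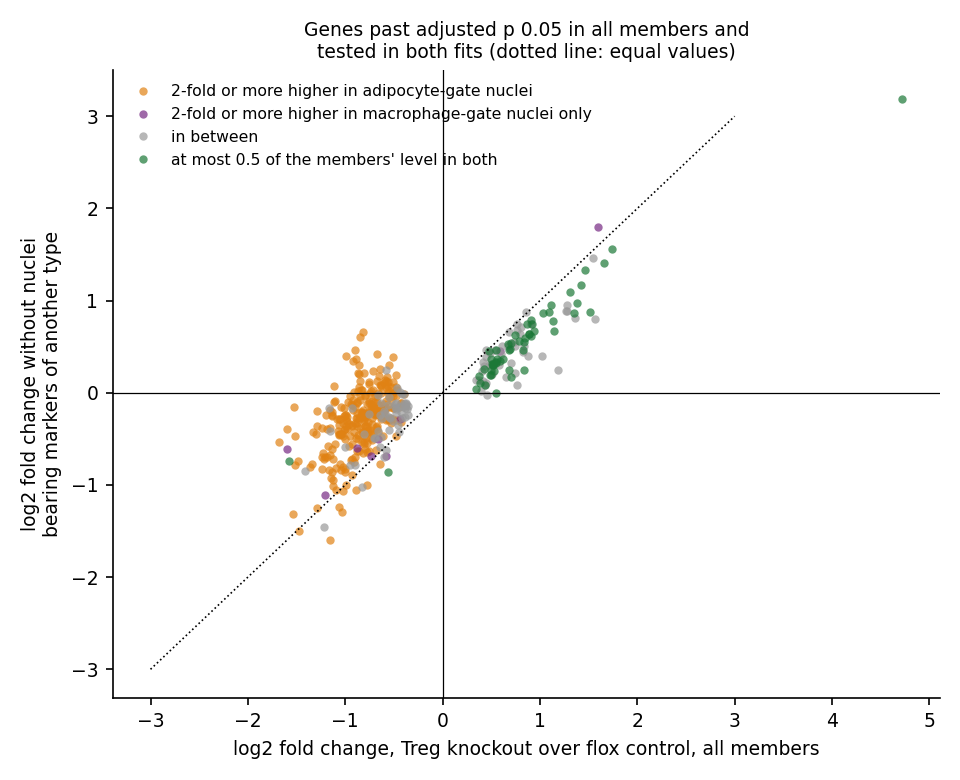
Log2 fold change, Treg knockout over flox control, of the genes called in all members (x axis) against that without nuclei bearing markers of another cell type (y axis); each point is a gene, coloured by whether it stood at least 2-fold higher in adipocyte-marked or macrophage-marked nuclei. The adipocyte genes that fell lie nearer to 0 on the y axis (median of all that fell −0.27 against −0.86), and the genes that rose lie at a median of 0.46 against 0.75.

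Ppl, which encodes the cytolinker periplakin and lies on chromosome 16 (5086291 to 5132421, mm10), was the called stromal gene that held under the most settings. It had 51.3, 83.8 and 63.6 CPM in Treg knockouts and 16.8, 19.7 and 26.8 CPM in flox controls, a log2 fold change of 1.65 ± 0.21 (SE; edgeR adjusted p = 0.00891). Without marked nuclei it had 65.4, 106 and 91.0 CPM in Treg knockouts and 27.7, 31.6 and 42.9 CPM in flox controls (log2 fold change 1.41, adjusted p = 0.0189). Every Treg knockout library lay above every flox control library both times, and Ppl passed in 25 of 26 other settings. Ppl averaged 43.7 CPM in members, 19.7 CPM in the Pi16 and Sema3e class and 129 CPM in the C7 and Gdf10 class.

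Igfbp6, a binding protein of insulin-like growth factors, had 161, 158 and 164 CPM in Treg knockouts and 94.0, 92.0 and 73.0 CPM in flox controls (log2 fold change 0.87, edgeR adjusted p = 0.00877). It rose also without marked nuclei (0.74, adjusted p = 0.0287) and passed in 24 of 26 settings. Inmt, an indole N-methyltransferase of the Cd142-type list, had 187, 150.4 and 148 CPM in Treg knockouts and 64.9, 93.6 and 90.5 CPM in flox controls (0.94, edgeR adjusted p = 0.0168; 0.67 and 0.0439 without marked nuclei). Il1rl2, the receptor of interleukin-36, had 237, 323 and 311 CPM in Treg knockouts and 153, 179 and 145 CPM in flox controls (0.85, edgeR adjusted p = 0.0155; 0.59 and 0.0439 without marked nuclei). Hsd11b1, which regenerates active glucocorticoid, had 180.2, 183 and 145 CPM in Treg knockouts and 115, 87.4 and 84.3 CPM in flox controls (0.79, edgeR adjusted p = 0.0347; 0.64 and 0.0384 without marked nuclei). In each of these 4 genes the libraries of the 2 groups did not overlap. Only Hsd11b1 of them was highest in members, at 132 CPM against 38.6 CPM in the Pi16 and Sema3e class and 73.1 CPM in the C7 and Gdf10 class. Igfbp6 averaged 124, 276 and 219 CPM in members and those classes, Inmt 122, 22.0 and 402 CPM, and Il1rl2 225, 525 and 282 CPM. The part of RNA or nuclei of the other classes in these rises was not tested.

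Kitl, which encodes stem cell factor, passed without marked nuclei and not with them. In all members it had 130, 142 and 153 CPM in Treg knockouts and 90.8, 78.8 and 118 CPM in flox controls (log2 fold change 0.55, edgeR adjusted p = 0.0553), and without marked nuclei its log2 fold change was 0.83 (adjusted p = 0.0251). Kitl stood lower in members than in macrophage-marked nuclei, with a mean of 119 CPM in members against 279.5 CPM in macrophage-marked nuclei, and a UMI in 19.1 to 32.1% of members against 39.1 to 49.5% of macrophage-marked nuclei.

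Other stromal genes rose in all members but missed the threshold without marked nuclei. Chrm3, the M3 muscarinic receptor, had 90.1, 175 and 145 CPM in Treg knockouts and 58.6, 42.1 and 51.1 CPM in flox controls (log2 fold change 1.42, edgeR adjusted p = 0.0339; adjusted p = 0.19 without marked nuclei). Slc7a11, the cystine and glutamate exchanger, had 128, 128 and 99.1 CPM in Treg knockouts and 47.0, 53.2 and 60.0 CPM in flox controls (1.13, edgeR adjusted p = 0.00646; 0.0717 without marked nuclei). Cxcl12, the chemokine that holds Cxcr4-bearing leukocytes, had 120, 120.4 and 101 CPM in Treg knockouts and 68.4, 54.6 and 57.5 CPM in flox controls (0.89, edgeR adjusted p = 0.0102; 0.0616 without marked nuclei). The 3 genes kept a positive log2 fold change without marked nuclei, at 1.17, 0.78 and 0.63. Cxcl12 averaged 86.9 CPM in members, 20.1 CPM in the Pi16 and Sema3e class and 182 CPM in the C7 and Gdf10 class. Chrm3 averaged 93.7, 64.1 and 104 CPM in the same classes.

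The rest of the largest rises in all members were Ildr2 (log2 fold change 1.35, edgeR adjusted p = 0.0104), the secreted angiopoietin-like gene Angptl1 (1.38, 0.021), Plac8 (1.27, 0.0201), Ism1 (1.15, 0.0411) and the testican gene Spock2 (1.11, 0.0174). They stood at 16.1 to 65.1 CPM in Treg knockouts, and none passed without marked nuclei.

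**Figure D4:**
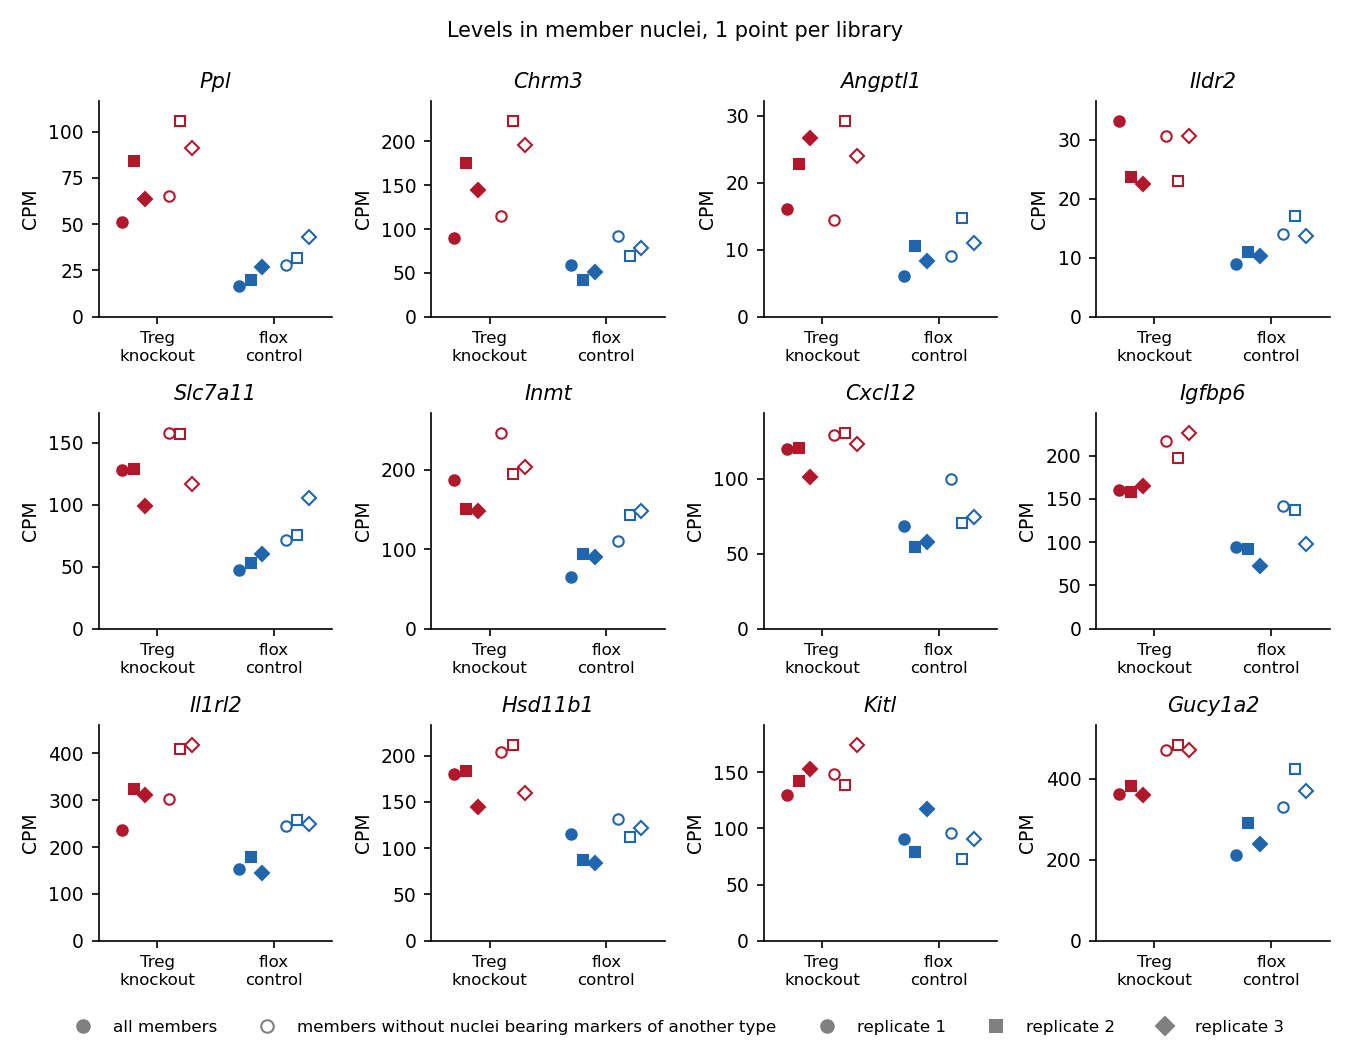
CPM per library of 12 genes in members, Treg knockout left of flox control; filled points are all members and open points members without nuclei bearing markers of another cell type. Ppl, Inmt, Igfbp6, Il1rl2 and Hsd11b1 pass in both, and Treg knockout libraries lie above flox control libraries in all members for every gene shown.

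Genes of lymphoid tissue were also higher in members of Treg knockouts, and several marker lists of lymphoid and lymphatic cells were higher there too. Ccl21a (log2 fold change 5.92) and Ccl19 (4.72), chemokines of lymphoid stroma, and the lymphocyte genes Themis (2.68) and Ms4a4c (3.40) rose, with edgeR adjusted p of 0.0263, 0.0263, 0.042 and 0.0473. Ccl21a had 70.5, 19.02 and 39.6 CPM in Treg knockouts and 0.175, 0.172 and 1.97 CPM in flox controls. Ccl21a and Ccl19 belong to families with near-identical copies, so the counts of single copies are uncertain. Of the 10 T-cell markers 8 were tested and 2 rose, and their sum stood at 93.3 to 301 CPM in Treg knockouts and 22.8 to 73.5 CPM in flox controls, and at 19.1 to 34.8 CPM and 3.36 to 12.4 CPM without marked nuclei. Of the 9 lymphoid stroma marker entries (copies counted singly) 4 were tested and 2 rose, and their sum stood at 91.0 to 311 CPM in Treg knockouts and 9.29 to 30.7 CPM in flox controls, with 2 at 0 in all members, and at 71.8 to 239 CPM and 11.2 to 28.6 CPM without marked nuclei. Igkc, an antibody chain of plasma and B cells, passed without marked nuclei (log2 fold change 3.54, adjusted p = 0.0137) and not with them (2.90, 0.292). Of the 7 lymphatic endothelial marker entries (copies of Ccl21a counted singly) 3 were tested and 1, Ccl21a, rose, and their sum stood at 29.4 to 77.5 CPM in Treg knockouts and 6.01 to 17.9 CPM in flox controls. None of the 8 B-cell markers was called, with a median log2 fold change of 2.18. Over all genes tested 0.863% rose. The part of RNA of these cells in the calls was not tested.

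Fat cell genes led the falls in all members. Plin1, the lipid droplet coat protein, had 120, 158 and 129 CPM in Treg knockouts and 295, 288 and 298 CPM in flox controls (log2 fold change −1.13, edgeR adjusted p = 0.00396), and −0.86 without marked nuclei (adjusted p = 0.334). Plin1 is itself among the adipocyte markers that chose the nuclei left out. Pparg had 533, 611 and 518 CPM in Treg knockouts and 771, 919 and 805 CPM in flox controls (−0.61, edgeR adjusted p = 0.0168). Without marked nuclei Pparg had 424, 383 and 416 CPM in Treg knockouts and 404, 417 and 545 CPM in flox controls, with overlap (−0.16, edgeR adjusted p = 0.775). Npr3, the clearance receptor of natriuretic peptides, had 398, 458 and 289 CPM in Treg knockouts and 956, 1023 and 908 CPM in flox controls (−1.36, edgeR adjusted p = 0.00911). It averaged 2762 CPM in adipocyte-marked nuclei and missed the threshold without marked nuclei.

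The 12 largest falls were genes at least 2-fold higher in adipocyte-marked nuclei than in members, except Specc1, which averaged 58.5 CPM there and 292 CPM in macrophage-marked nuclei. Lsmem1, a small membrane protein gene, had 9.06, 3.75 and 4.34 CPM in Treg knockouts and 42.1, 36.2 and 41.1 CPM in flox controls (log2 fold change −2.92, edgeR adjusted p = 0.00396), and averaged 84.0 CPM in adipocyte-marked nuclei. The others were the calcium channel gene Ryr2 (−2.39), the G protein gene Gnal (−2.21), Pclo (−2.09), Lctl (−2.05), Vat1l (−1.97), the formin gene Fhod3 (−1.76), Sh3tc2 (−1.73), the nuclear corepressor gene Hr (−1.73), smooth muscle actin Acta2 (−1.68), Specc1 (−1.60) and Tmem45b (−1.60), with edgeR adjusted p of 0.00396 to 0.0472.

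Genes that fell with and without marked nuclei were few. Nhsl2 had 98.7, 97.1 and 98.9 CPM in Treg knockouts and 160, 140 and 153 CPM in flox controls (log2 fold change −0.65, edgeR adjusted p = 0.00877; −0.58 and 0.0439 without marked nuclei). Wsb1, a substrate receptor of a ubiquitin ligase, had 87.6, 86.7 and 88.7 CPM in Treg knockouts and 133, 133 and 119 CPM in flox controls (−0.58, edgeR adjusted p = 0.0147; −0.69 and 0.0349 without marked nuclei). Tanc2, a scaffold protein gene, fell by 0.73 on the log2 scale (edgeR adjusted p = 0.0198; 0.0384 without marked nuclei), and averaged 848 CPM in macrophage-marked nuclei. The imprinted RNA Meg3, the septin gene Sept11, the angiotensin receptor gene Agtr1a and the calcium channel gene Cacna1e passed as lower without marked nuclei and not with them (log2 fold changes −0.73, −0.57, −0.55 and −1.96; edgeR adjusted p 0.0384, 0.0384, 0.0492 and 0.0287), and that they changed more there was not tested.

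The gene lists are described by their counts and medians, beside a median log2 fold change of 0.01 over all tested genes, with and without marked nuclei, and a positive value in 6869 of 13436. Over all tested genes 0.863% were called higher and 3.08% lower, which is the background for the count of each list. Of 33 tested adipogenic factors and early adipocyte genes 8 fell, against 3.08% of all genes tested, and none rose: Pparg, Plin1, Cebpa (−1.001), Fabp4 (−0.68), Cd36 (−0.89), Gpd1 (−0.96), Prdm16 (−0.64) and Zfp423 (−0.72), with edgeR adjusted p of 0.00396 to 0.0461. The median of the list was −0.11, and −0.09 without marked nuclei, where none of 31 passed. The 14 genes of the Icam1-type list held 3 of the same falls (Pparg, Fabp4 and Cd36) and no rise, with a median of 0.00, and −0.03 with none called without marked nuclei. Of 12 tested Dpp4-type genes Igfbp6 rose and Limch1 fell (−0.71), with a median of 0.31, and 0.07 without marked nuclei. Of 10 tested Cd142-type genes Inmt and the matrix gene Vit (0.59) rose.

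Cyclic nucleotide genes, to whose family the defining gene Pde11a belongs, gave 1 rise and 6 falls among 35 tested, against 0.863% and 3.08% of all genes tested. Gucy1a2, a subunit of the nitric oxide receptor, had 362, 382 and 359 CPM in Treg knockouts and 210.4, 291 and 238 CPM in flox controls (log2 fold change 0.55, edgeR adjusted p = 0.0381). Those that fell were Npr3, the phosphodiesterase genes Pde3b (−0.64), Pde4d (−0.70) and Pde7a (−0.91), the adenylate cyclase gene Adcy5 (−0.85) and the kinase subunit gene Prkar2b (−0.95). None of 34 passed without marked nuclei, and the values of Pde3b, Pde7a and Adcy5 were then above 0.

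Of the matrix lists, 1 of 25 fibrillar collagen genes rose (Pcolce2, an enhancer of procollagen processing, 0.52, edgeR adjusted p = 0.0116) and none of 19 basement membrane genes or 24 proteases and inhibitors was called. Among 38 matrix glycoproteins Emilin2 (0.67) and Ecm1 (0.81) rose and Thbs1 (−1.15) and Tnc (−1.57) fell, with a median of 0.18, and 0.01 without marked nuclei. Tnc, the glycoprotein tenascin C, averaged 3.60 CPM in adipocyte-marked nuclei and 5.61 CPM in macrophage-marked nuclei, and had 10.6, 21.3 and 7.80 CPM in members of Treg knockouts and 38.9, 35.9 and 44.3 CPM in those of flox controls. It missed the threshold without marked nuclei (−0.74, edgeR adjusted p = 0.882). Of 11 myofibroblast genes Acta2 and Tnc fell and none rose. The background for each of these lists was 0.863% called higher and 3.08% called lower over all genes tested.

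Signalling lists gave scattered calls, beside 0.863% higher and 3.08% lower over all genes tested. Without marked nuclei 0.151% of all genes tested were called higher. Among the TGF-beta genes Ltbp1, which stores the latent ligand in the matrix, rose (0.48). Among 28 BMP genes Bmp3 (−1.04) and the receptor gene Bmpr1a (−0.48) fell, and among 35 WNT genes the antagonist Sfrp4 rose (0.91) while Lgr4 (−0.97) and Sfrp5 (−0.93) fell. Of 42 growth factor and receptor genes Igfbp6 and Angptl1 rose and Ghr (−0.56) and Pdgfd (−0.62) fell, and without marked nuclei Igfbp6 and Kitl rose among 39. Of 36 guidance genes Sema3a, a repellent guidance cue, rose (0.62) and the plexin gene Plxna2 fell (−0.70). Of 15 complement genes the inhibitor Cd59a fell (−1.48).

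Stromal signals to immune cells had a median of 0.33 over 28 tested genes, with 3 rises (Cxcl12, Ccl19 and Ccl21a) and no fall, and a median of 0.17 without marked nuclei. Over all genes tested 0.863% rose and 3.08% fell. Of 29 interferon and MHC class I genes 27 had a positive log2 fold change (6869 of 13436 over all genes) and 3 rose, against 0.863% of all genes tested: Usp18 (0.83, edgeR adjusted p = 0.0378), Parp14 (0.42, 0.0382) and Tap2 (0.60, 0.0436). The interferon median was 0.37, and 0.24 without marked nuclei, where none of 28 passed. None of 22 immediate early and heat shock genes, 16 circadian genes or 12 cell division genes was called.

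**Figure D5:**
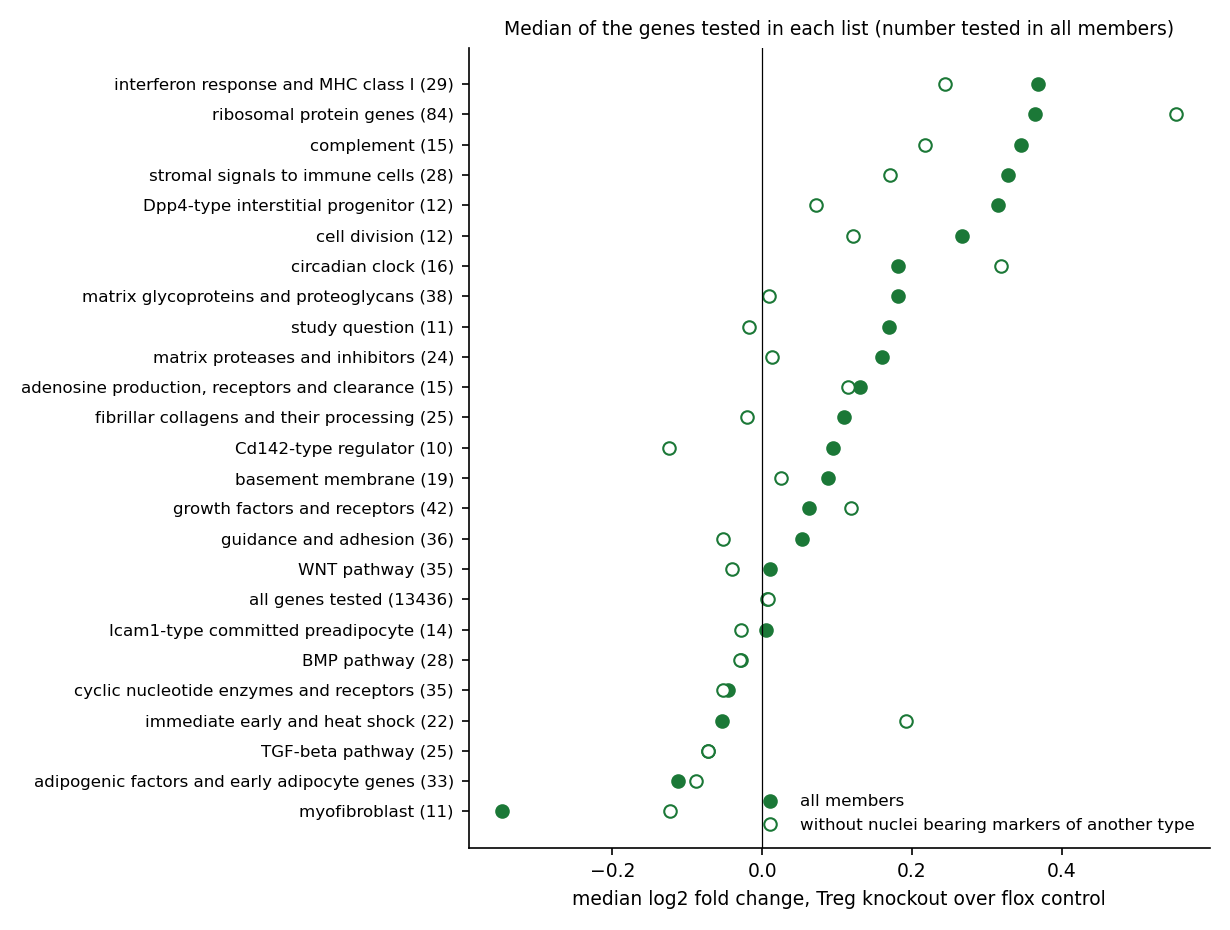
Median log2 fold change, Treg knockout over flox control, of each gene list in members, the lists of rule genes left out; filled points are all members and open points members without nuclei bearing markers of another cell type, with the number of genes tested in all members in brackets. The interferon (0.37), ribosomal protein (0.36), complement (0.35) and stromal signal (0.33) lists lie highest, against 0.01 for all genes tested, and the myofibroblast list (−0.35) lowest among all members, and the ribosomal protein and circadian lists lie farther from 0 without marked nuclei, where the interferon, complement and stromal signal lists lie nearer to it.

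The genes tied to the study's question gave 1 rise and 1 fall among 11 tested, against 0.863% and 3.08% of all genes tested. Nt5e, which encodes the adenosine-forming ectoenzyme Cd73, had 12.6, 9.22 and 10.4 CPM in Treg knockouts and 1.93, 3.43 and 1.97 CPM in flox controls, from 93 and 39 UMIs (log2 fold change 2.06, edgeR adjusted p = 0.0115). A UMI of it was found in 3.12, 2.51 and 2.80% of members in Treg knockouts and in 0.828, 1.41 and 0.893% in flox controls. In macrophage-marked nuclei the share was 0.431 to 2.48% per library, and whether they express Nt5e themselves was not tested. The gene was thus detected in few nuclei, and it was too low to test without marked nuclei. Nt5e averaged 6.59 CPM in members, 21.5 CPM in the Pi16 and Sema3e class and 12.2 CPM in the C7 and Gdf10 class. The part of RNA or nuclei of those classes in its rise was not tested. Leptin (Lep), the hormone of fat cells, fell by 0.995 on the log2 scale (edgeR adjusted p = 0.00646) and averaged 519 CPM in adipocyte-marked nuclei. Gpsm1 itself had 95.6, 93.3 and 90.8 CPM in Treg knockouts and 70.3, 96.3 and 61.2 CPM in flox controls, with overlap (0.26, edgeR adjusted p = 0.44). Lepr had 53.4, 4.32 and 12.4 CPM in Treg knockouts and 0.526, 0.343 and 1.23 CPM in flox controls and did not pass (edgeR adjusted p = 0.102). The others that did not pass were Itgae (0.88), Adora1 (−1.25), Adora2a (0.03), Il33 (0.12), Il1rl1 (0.17), Egfr (0.21) and Adipoq (−0.48), with edgeR adjusted p of 0.0986 to 0.99, and Adora2b and Areg were too low to test.

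Whether the genotype effect differed between members and the other classes was tested in 1 fit with the library as a block. Against the Pi16 and Sema3e class 2 of 14329 genes differed (0.014%), and against the C7 and Gdf10 class 4 of 11356 (0.0352%), 1 of which, Gria4, was used by the rule. At an unadjusted p under 0.05, 1018 genes differed from the first class and 676 from the second. Col5a3, a type V collagen chain, had 569, 650.2 and 598 CPM in members of Treg knockouts and 517, 588 and 424 CPM in those of flox controls. In the Pi16 and Sema3e class it had 81.0, 110 and 87.1 CPM in Treg knockouts and 165, 157 and 124 CPM in flox controls, so the effects differed by 0.96 ± 0.12 on the log2 scale (SE; edgeR adjusted p = 0.029). The Col5a3 effect was called in neither class alone. Ildr2 had 33.2, 23.6 and 22.5 CPM in members of Treg knockouts and 8.94, 10.99 and 10.3 CPM in those of flox controls. In the Pi16 and Sema3e class Ildr2 had 338, 265 and 304 CPM in Treg knockouts and 304, 276 and 291 CPM in flox controls (difference 1.33 ± 0.16, edgeR adjusted p = 0.029).

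Gucy1a2 was higher in members of Treg knockouts, as given above, whereas in the C7 and Gdf10 class it had 143, 130 and 158 CPM in Treg knockouts and 207, 248 and 158 CPM in flox controls (difference 1.08 ± 0.18, edgeR adjusted p = 0.028). Frmd5 (2.56 ± 0.39) and the WNT modulator gene Dkk2 (2.38 ± 0.41) also differed from that class, both with an adjusted p of 0.028. These counts rested on single libraries: without any one of Treg knockouts 1 to 3 or flox controls 1 and 2, 0 genes differed from the Pi16 and Sema3e class in edgeR (710 to 989 at an unadjusted p under 0.05), and without flox control 3 there were 186. From the C7 and Gdf10 class 1, 9 and 0 genes differed without Treg knockouts 1, 2 and 3, and 2 and 10 without flox controls 2 and 3. Without marked nuclei 7 differed from the Pi16 and Sema3e class and 1 from the C7 and Gdf10 class.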

How the data were processed

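The authors deposited UMI counts per gene and barcode for 6 libraries, made with Cell Ranger 7.1 per the submitters' processing notes, which name the builds mm10 and GRCh38. Whether intronic reads were counted is not given in the sources used here. Barcodes with under 500 genes (123 to 654 per library) or over 5% mitochondrial UMIs (235 to 630) were left out, and doublet scores were used in an alternative only. The members, gene lists and tests were chosen with earlier results of these data known. UMIs were summed per library and tested with edgeR 4.0.16 in R 4.3.3 (TMM factors, filterByExpr, robust quasi-likelihood fit, Benjamini-Hochberg threshold 0.05), with DESeq2 1.42.0 as an alternative. Differences between classes were fitted with the library as a block and a class-by-genotype term. Shares were compared by exact two-sided permutation in scipy 1.17.1, and doublets were scored with scanpy 1.11.5 at 0.8% per 1000 barcodes. On simulated data the genotype test recovered 54 of 100 genes changed by 1 on the log2 scale and 100 of 100 changed by 2, with 8 false calls among 13497 genes, and the class difference test against the Pi16 and Sema3e class 36 and 99 of 100, with 7 false calls among 14302. Genes were named by rule: the 12 largest called rises and falls without overlap and with at least 20 CPM, every called list member, the rule and study-question genes, the 20 leading and 10 lowest class genes, and the 6 lowest p of the class difference. Genes named beyond it (Il1rl2, Hsd11b1, Kitl, Igkc, Nhsl2, Wsb1, Tanc2, Meg3, Sept11, Agtr1a and Cacna1e) were chosen after their values were seen. A called list member is not reported here. Positions are from GENCODE M21 (mm10), which held 99.85% of the 32285 genes. In all 26 other settings were tried in members. Marked nuclei carry at least 3 markers of another cell type. That setting was planned, and leaving out only adipocyte-marked nuclei was added after seeing the data.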

Additional observations from a re-analysis of the deposited data

Results flagged for a closer look

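The genotype effect on 5 genes differed between members and another stromal class by a test of the difference itself. Against the Pi16 and Sema3e progenitors, Col5a3 differed by 0.96 and Ildr2 by 1.33 on the log2 scale, each with an effect that was higher in members. Against the C7 and Gdf10 stromal nuclei, Frmd5 differed by 2.56, Dkk2 by 2.38 and Gucy1a2 by 1.08, again higher in members. Frmd5 had 43.3, 19.6 and 13.9 CPM in members of Treg knockouts and 2.81, 1.20 and 5.41 CPM in those of flox controls, from 202 and 45 UMIs, and its change in members alone did not pass (edgeR adjusted p = 0.0506). Dkk2 had 95.6, 282 and 75.7 CPM in members of Treg knockouts and 83.3, 129 and 90.5 CPM in those of flox controls, with overlap, against 3.40, 28.0 and 4.06 CPM in Treg knockouts and 25.3, 79.2 and 27.6 CPM in flox controls in the C7 and Gdf10 class. The C7 and Gdf10 class held only 79, 157 and 126 nuclei in Treg knockouts 1, 2 and 3 and 123, 120 and 121 in flox controls 1, 2 and 3. Its lowest levels of Dkk2 therefore rest on few UMIs, and the difference rests on them in part. The libraries and their depth are shared by the classes, and no cause was tested.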

How the results depend on the processing

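The number of genes that rose in members (116) or fell (414) changed by over 1.5 times under several settings. Rises numbered 239 with the DESeq2 test (524 falls), 239 without a filter on low counts, and 14 to 160 when each library was left out in turn, with 92 to 383 falls. They numbered 8 with 17 falls under the rule on thinned counts, 44 with 166 falls under a set count of 3, and 16 with 95 falls without Bmper in the rule, while the rule without Dpep1 gave 265 falls. Without markers of another cell type 17 rose and 9 fell, without adipocyte markers 0 and 0, and without both the marked nuclei and flox control 3, 35 and 26. Genes whose effect differed from the Pi16 and Sema3e class (2) numbered 1 with doublets removed, 8 on thinned counts, 9 under a set count of 3, 7 without marked nuclei and 0 to 186 when each library was left out. Those that differed from the C7 and Gdf10 class (4) numbered 15 on thinned counts, 1 under a set count of 3, 1 without marked nuclei and 0 to 10 when each library was left out. The difference in the share of stromal nuclei became 0.217 percentage points when marked members were not counted but stayed in the denominator.

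Libraries of the same replicate number had correlations of deviations of −0.08, 0.229 and 0.207, and those of unlike numbers −0.339 to 0.209. With 3 libraries per group these values cannot decide whether the replicates were paired. The labels state no pairing, so the block on the replicate number is an alternative. With the replicate block 266 genes rose and 440 fell, and with the block and a gene span offset 302 rose and 412 fell. Without the library block, 0 genes differed in effect from either other class in edgeR (594 and 545 at an unadjusted p under 0.05).

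Some log2 fold changes of named genes that had fallen turned positive. Without marked nuclei these were Limch1 at 0.24, Prdm16 at 0.26, Pde3b at 0.00085, Pde7a at 0.014, Adcy5 at 0.20 and Ghr at 0.029. Ghr is itself among the adipocyte markers that chose the nuclei left out. With flox control 3 left out as well the values of these genes were 0.24, 0.29, 0.15, 0.13, 0.34 and 0.088 in the same order. Without adipocyte markers they were Ryr2 at 0.63, Prdm16 at 0.17, Pde3b at 0.0013, Pde7a at 0.26 and Adcy5 at 0.30, and on thinned counts Pde3b at 0.011 and Adcy5 at 0.29. The cause was not tested. Scaling moved the median of all genes by at most 0.025. The depth limits genes with few UMIs in members, such as Nt5e and Frmd5, and genes with few UMIs in the C7 and Gdf10 class, such as Dkk2.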

Other observations

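Ribosomal protein genes, a list added after seeing the data, were mostly higher in members of Treg knockouts. Of 84 tested, 81 had a positive log2 fold change with a median of 0.36, and 1 (Rps16) was called in all members. Without nuclei bearing markers of another cell type 9 of 83 were called as higher (Rpl27a, Rpl13, Rps7 and Fau among them), with a median of 0.55. They belong to the 17 genes that rose in that setting, 0.151% of all genes tested. Ribosomal protein genes took 0.384, 0.451 and 0.458% of the UMIs of all members in Treg knockouts and 0.316, 0.235 and 0.445% in flox controls, with overlap. Near-identical copies make the counts of single genes of this kind uncertain.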
